A study of Mus musculus with 2 samples.

Results

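The genes described here encode the nuclear subunits of the oxidative phosphorylation system, that is, of respiratory chain complexes I, III and IV and of the ATP synthase, complex V. They were chosen by symbol, as every gene whose symbol begins with Nduf followed by a, b, c, s or v and a digit, with Uqcr, with Cox and a digit between 4 and 8, or with Atp5, and which has at least 1 transcript annotated as protein coding. The rule gave 81 genes of the 55536 in the gene tables, with 37 in complex I, 8 in complex III, 18 in complex IV and 18 in complex V. The 81 genes carry 80 symbols, because Atp5o stands for the ATP synthase gene and for a second annotated entry that overlaps it. The rule itself uses no measured value. A further 12 symbols fitted the pattern but had no coding transcript.

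The libraries were polyA-selected RNA-seq of bone marrow-derived macrophages, primary cells grown in culture from the marrow of C57BL/6J mice. Per the labels' description, the cells received 100 ng/ml Lipid A, the lipid part of bacterial lipopolysaccharide, for 12 h, were washed free of it for 12 h and then received 100 ng/ml again for 300 min, whereas the treatment field names lipoprotein A, a protein. All 2 libraries belong to this 1 group and carry the same donor identifier with separate biosamples, so they describe the state of these treated cells and how far replicates lie apart, with no untreated reference and no p-value. The libraries held 50503160 and 46342327 expected counts, all 10 macrophage markers stood at 10 TPM or more in both, and the summed level of 6 neutrophil markers was 67.3 and 3.91 TPM. Summed markers of T and B cells came to 0.58 and 0.06 TPM, of erythroid cells to 0.12 and 0 TPM, and of stroma to 1.57 and 2.34 TPM. Whether the neutrophil signal touches any level below was not tested.

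Complex I passes electrons from NADH to ubiquinone, complex III passes them on to cytochrome c, and complex IV hands them to oxygen; all 3 pump protons across the inner mitochondrial membrane, and the ATP synthase uses that gradient to make ATP. A minority of the subunits, which lie in the membrane parts of these complexes, are encoded in mitochondrial DNA, and the nucleus encodes all others. Macrophages given bacterial lipid agonists are known to shift towards glycolysis and to alter how they use this chain, which is why the composition of its transcripts is of interest in these cells.

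Nearly the whole set was expressed, and at high levels. Levels are given as TPM, the authors' deposited abundance, a share of all transcripts that is scaled to transcript length and so can be compared between genes. Of the 81 genes, 74 reached 1 TPM in both libraries, 71 reached 10 TPM, 45 reached 100 TPM and 4 reached 500 TPM. Among the 74, the median level was 134.5 TPM, against 16.9 TPM over the 9781 protein-coding genes that reached 1 TPM, and 60.8% of them stood at 100 TPM or more in both libraries, against 12.2% of those coding genes. The members were shorter, with a median length of 689 nt against 2461 nt, and the gap was smaller among short genes. Below 600 nt the median level was 226 TPM in 28 members and 162 TPM in 158 coding genes. Between 600 and 900 nt it was 166 and 49.5 TPM, and from 1500 nt upward 84.6 and 14.4 TPM. Together the 74 members took 1.57% of all TPM in replicate 1 and 1.43% in replicate 2. The complexes were ordered V, IV, III and I by median level over all their genes, with 259 ± 15.5, 210.4 ± 1.17, 176 ± 25.5 and 93.2 ± 3.15 TPM (SD of the medians of 2 libraries), and both libraries gave this order. The centre is the median of gene means over both libraries, so it need not lie between the library medians. For all genes of complex IV these were 207.75 and 206.1 TPM. Over expressed genes alone complex IV came first with 314 ± 63.95 TPM, since 5 of its 18 genes did not reach 1 TPM. Its SD then spanned the median of complex V, 260.04 ± 13.9 TPM. Complex IV led in replicate 1, with 359 against 249 TPM. In replicate 2 it lay just below complex V, with 268.6 against 269.03 TPM. The order of these 2 complexes thus rests on whether unexpressed isoform genes are counted, and then on the replicate.

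**Figure D1:**
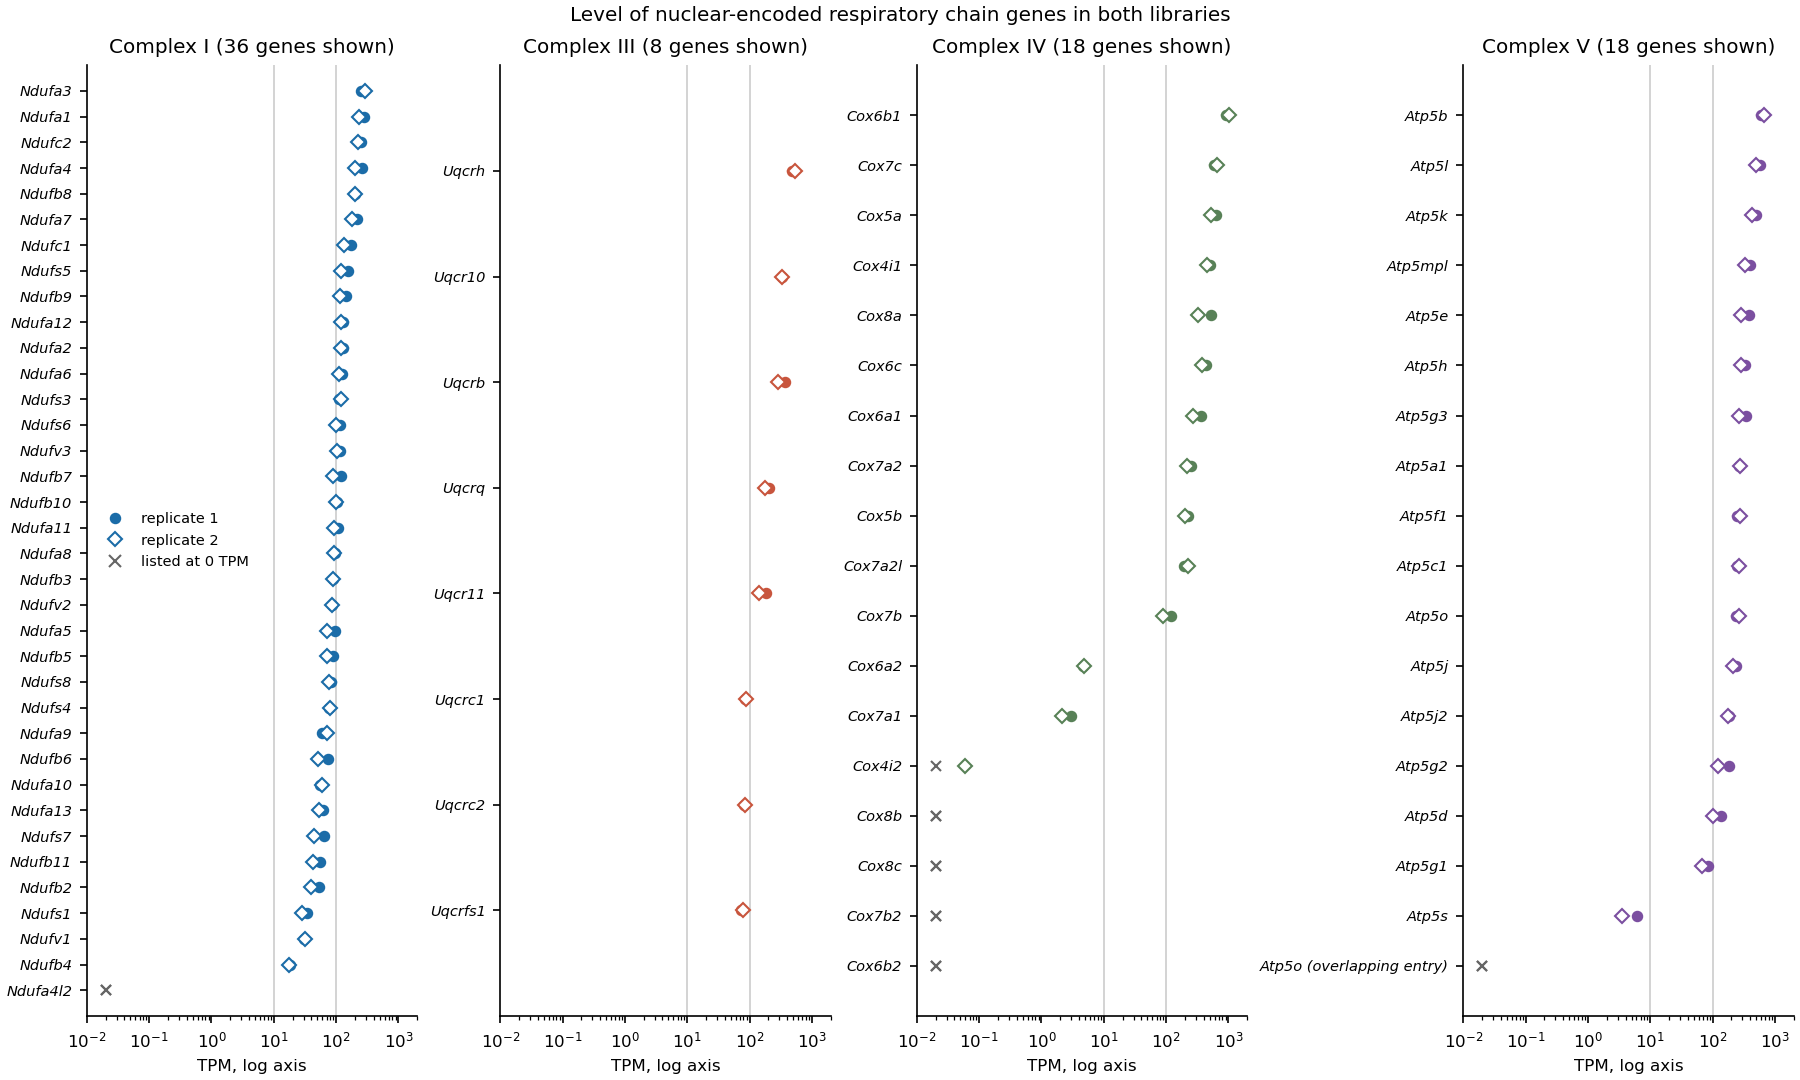
Level of 80 of the 81 genes in TPM (log axis) in replicate 1 (filled circles) and replicate 2 (open diamonds), by complex and from the highest to the lowest mean; crosses at the left edge mark values listed at 0 TPM, and grey lines mark 10 and 100 TPM. Most genes of complexes IV and V sit to the right of the 100 TPM line, most of complex I sits on or left of it, and a separate low group is seen in complex IV.

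Among genes at 1 TPM or more, subunit levels within a complex were closer to each other than the levels of coding genes in general. The interquartile range of the log2 level, computed on log2(TPM + 1) and averaged over the libraries, was 0.85 in complex I, 0.88 in complex V, 1.29 in complex IV and 1.88 in complex III, against 2.72 over all coding genes at 1 TPM or more. Counting unexpressed genes too, the range in complex IV widened to 8.24. The highest level in complex I was nevertheless 15.8-fold its lowest expressed one in replicate 1 and 16.2-fold in replicate 2. The same ratio was 6.60 and 6.76 in complex III, 98.8 and 184 in complex V, and 314 and 491 in complex IV.

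In complex I the small accessory subunits led. Ndufa3 had 253 and 285 TPM in replicates 1 and 2, Ndufa1 had 282 and 229.7 TPM, and Ndufc2 had 248 and 222 TPM, and all 3 encode small accessory subunits of the membrane part. The replicates crossed here, as replicate 2 was the higher for Ndufa3 and the lower for the other two. The 7 core subunits encoded in the nucleus, which hold the flavin and the iron-sulfur clusters, had a median of 79.2 ± 4.25 TPM, against 104 ± 10.4 TPM for the 29 other expressed subunits (SD, 2 libraries). Their transcripts were also longer, with a median length of 1164 nt for the core genes and 635 nt for the others. Ndufs3 was the highest of the core genes, with 110 and 118 TPM, and was the single one above 100 TPM in both libraries.

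The NADH-binding end of the complex held the lowest core genes. Ndufv1, the subunit that binds NADH and flavin mononucleotide, had 30.3 and 31.3 TPM, and its partner Ndufv2 had 85.1 and 86.1 TPM. Ndufs1, the largest subunit and a carrier of iron-sulfur clusters, had 34.0 and 27.9 TPM. The values of Ndufv1 lay between those of Ndufs1 in the replicates, and both genes stood below every other core gene. Ndufs7, the next one up, had 63.1 and 44.7 TPM. Ndufs8, a core subunit that carries iron-sulfur clusters, had 82.2 and 76.2 TPM. Exons of Ndufs1 overlap those of Eef1b2, a translation elongation factor gene on the opposite strand with 217 and 239 TPM, and the counting is not stated to use strand, so reads of the pair may not have been told apart.

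Ndufb4, an accessory subunit of the membrane arm, was the lowest expressed gene of complex I with 17.9 and 17.7 TPM, while a processed pseudogene of it, Ndufb4c, was listed at 215 and 164 TPM. Ndufb4 lies on the minus strand at chr16:37647170-37654453 and Ndufb4c on the minus strand at chr15:73809507-73809896 (GRCm38, GENCODE M21). A processed pseudogene is a copy of a spliced mRNA returned to the genome without introns. The whole coding sequence of Ndufb4, 390 bases, was found in the single-exon Ndufb4c with 0 differences, so a read that lies inside the coding sequence matches both genes equally. The first 300 coding bases of Ndufb4, which span chr16:37649041-37654359, are shown because they are letter for letter those of Ndufb4c at chr15:73809597-73809896; the capitals mark the 6 bases around the exon junction of Ndufb4, which Ndufb4c holds as unbroken sequence:

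Ndufb4 and Ndufb4c: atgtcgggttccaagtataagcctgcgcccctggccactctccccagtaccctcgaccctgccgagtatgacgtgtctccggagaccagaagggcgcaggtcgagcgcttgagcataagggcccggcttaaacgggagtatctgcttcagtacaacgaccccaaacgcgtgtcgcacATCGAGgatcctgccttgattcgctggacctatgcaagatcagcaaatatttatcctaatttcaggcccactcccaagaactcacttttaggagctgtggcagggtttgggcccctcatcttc

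Summed over the pair, the level was 233 and 181 TPM, of which Ndufb4 held 7.67% and 9.73%. Whether the RNA comes from chromosome 16, from chromosome 15 or from both was not tested. Ndufb1-ps, named for the Ndufb1 subunit but annotated as a non-coding gene and so outside the rule, had 199 and 201 TPM. The rest of complex I, apart from Ndufa4 and Ndufa4l2, described with the isoforms, ranged between means of 46.5 and 202 TPM.

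Complex III fell into a group of small subunits at high levels and a group of large ones at lower levels. Uqcrh, the acidic hinge protein at the cytochrome c docking site, had 485 and 532 TPM. Uqcr10 and Uqcrb, small subunits of the membrane part, had 329 and 331 TPM and 372 and 287 TPM. The 2 core proteins Uqcrc1 and Uqcrc2 had means of 85.9 ± 1.74 and 83.3 ± 2.50 TPM, and the Rieske iron-sulfur protein Uqcrfs1 had 76.1 ± 3.75 TPM (SD, 2 libraries). These 3 differed by less than 10 TPM, and all 5 small subunits stood above them in both libraries. The electron-carrying subunit Cyc1, cytochrome c1, falls outside the symbol rule and had 58.5 and 54.9 TPM.

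Complex IV held the highest gene of the set. Cox6b1, which faces the intermembrane space next to cytochrome c, had 925 and 1031 TPM and lay above 98.8% of expressed coding genes. Cox7c had 589 and 648 TPM and Cox5a had 633 and 534 TPM, so the replicates did not keep their order. Cox4i1, Cox8a and Cox6c had means of 477 ± 41.8, 423 ± 133 and 409 ± 44.9 TPM, and the SD of Cox8a was the widest of all 81 genes. Of the 11 complex IV genes at 10 TPM or more, Cox7b was the lowest, with 121 and 87.7 TPM.

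In the ATP synthase the catalytic head was uneven. Atp5b, the beta subunit that carries the catalytic sites, had 602 and 654 TPM. Atp5a1, the alpha subunit present in the same number of copies, had 268 and 276 TPM. The single-copy subunits of the central stalk had means of 334 ± 71.2 TPM for Atp5e (epsilon), 259 ± 13.3 TPM for Atp5c1 (gamma) and 118 ± 22.4 TPM for Atp5d (delta). The beta gene thus stood more than 2-fold above the alpha gene in both libraries, a gap wider than the replicate spread of either. In a second quantification of the same reads the gap was narrower, with 454 and 480 TPM for Atp5b and 246 and 258 TPM for Atp5a1. Atp5l and Atp5k, subunits g and e of the dimer interface, had 573 and 496 TPM and 499 and 424 TPM. Of the other membrane and stalk subunits, Atp5mpl had a mean of 361 ± 46.3 TPM, Atp5h, subunit d, 312 ± 33.4 TPM, and Atp5j2, subunit f, 179.7 ± 6.41 TPM. The lowest was Atp5s, the coupling factor B, which is not counted as a structural subunit, with 6.09 and 3.56 TPM from 223 and 145 counts. The second Atp5o entry had 0 counts in both libraries, with deposited upper credibility bounds of 0.377 and 0.442 TPM, whereas the Atp5o gene itself, the oligomycin-sensitivity subunit of the peripheral stalk, had 238 and 265 TPM.

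Several subunits exist as isoforms encoded by separate genes, and in complex IV the ubiquitous isoforms stood far above the tissue-restricted ones. The ubiquitous isoforms led, with means of 104 TPM or more, and those known from heart and skeletal muscle, lung or testis were below 5 TPM in the first quantification. Cox6a1, the ubiquitous form, had 359 and 269 TPM, against 4.59 and 4.74 TPM for Cox6a2, the heart and muscle form, a ratio of 78.2 and 56.7. In the second quantification the gap was smaller, with 297 and 229 TPM for Cox6a1 and 8.21 and 11.6 TPM for Cox6a2. Cox7a2 had 247 and 212 TPM, against 2.94 and 2.10 TPM for the muscle form Cox7a1, a ratio of 83.9 and 101. The muscle isoforms rested on 69 and 66 counts for Cox6a2 and on 15 and 10 counts for Cox7a1. The muscle markers did not accompany them: 5 markers summed to 0.40 TPM in replicate 1 and 0.08 TPM in replicate 2, with Mb, myoglobin, at 0 counts in both.

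The remaining rare isoforms had 1 count or none. Cox4i1 had 506 and 447 TPM, while Cox4i2, the form known from lung, had 0 and 1 count. Cox6b1 had 925 and 1031 TPM, while the testis form Cox6b2 had 0 counts and upper credibility bounds, as deposited by the authors, of 2.04 and 2.17 TPM. Where the bound was below the TPM that 3 counts would give in a library, that TPM was taken as the limit for 0 counts. By this limit Cox8a was at least 706-fold and 418-fold above the muscle form Cox8b and at least 1244-fold and 740-fold above the testis form Cox8c. Cox7b was at least 408-fold and 275-fold above Cox7b2. In complex I, Ndufa4 had 260 and 197 TPM, while Ndufa4l2, the form known to be induced by hypoxia, had 0 counts and upper credibility bounds of 0.726 and 0.771 TPM. Such limits cover counting error only.

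**Figure D2:**
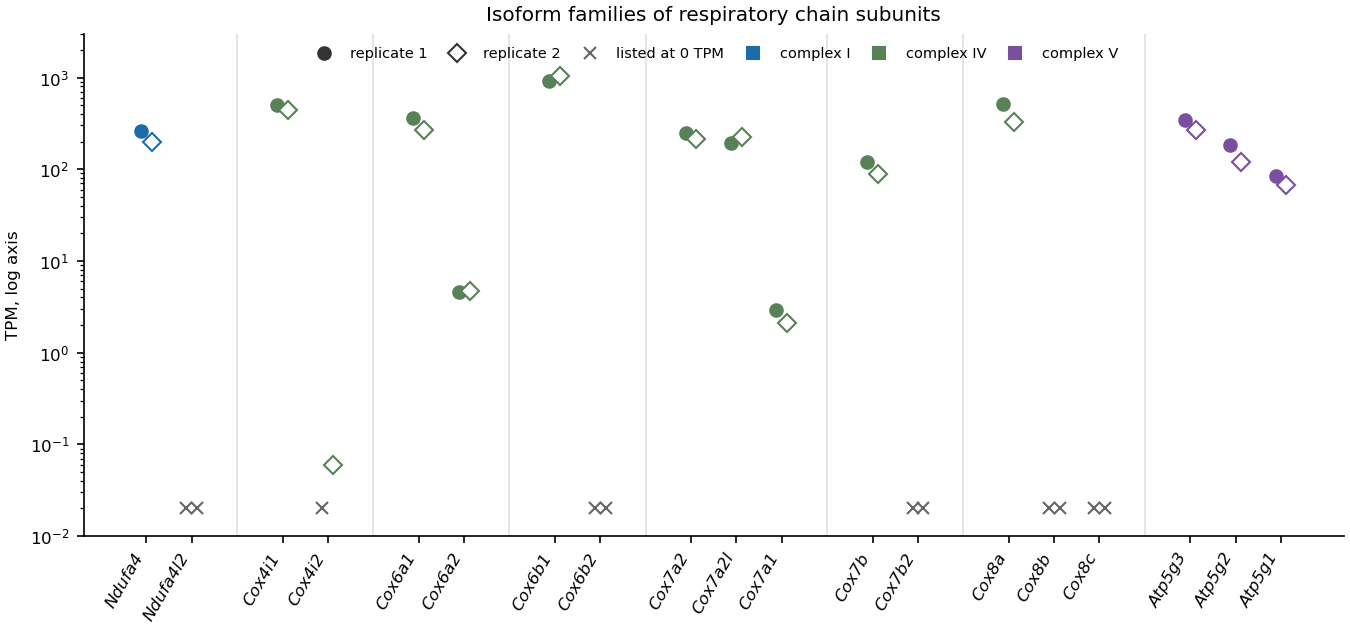
Level in TPM (log axis) of each gene of 8 isoform families in replicate 1 (filled circles) and replicate 2 (open diamonds), coloured by complex; crosses near the bottom mark values listed at 0 TPM. Every complex IV family but Cox7a shows 1 high gene and low or undetected partners, Cox7a shows Cox7a2 and Cox7a2l side by side, and the 3 Atp5g genes lie within 1 decade.

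Other families were shared out more evenly. Cox7a2l had 192 and 226 TPM. Cox7a2 exceeded it by 1.28-fold in replicate 1 and stood at 0.938 of it in replicate 2. The order of the pair was thus not settled. The 3 genes for subunit c of the ATP synthase rotor encode the same mature protein with different targeting sequences, and they followed the order Atp5g3, Atp5g2, Atp5g1 in both libraries. Atp5g3 had 346 and 269 TPM, Atp5g2 had 182 and 120.4 TPM, and Atp5g1 had 84.9 and 66.7 TPM. The ratio of Atp5g3 to Atp5g1 was 4.07 and 4.04. The place of Atp5g2 held in this quantification alone, as described below.

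Ndufa4 is filed with complex I by its name, although work on human and bovine enzymes places the protein in complex IV. AA467197, the mouse counterpart of human C15ORF48, encodes a paralog of Ndufa4 that is known to take its place during inflammation. This gene falls outside the symbol rule, and it was named after its values were seen. It had 29.95 and 62.8 TPM, so it was the higher in replicate 2, in which Ndufa4 was the lower. The log2 ratio of replicate 2 over replicate 1 was 1.06 for AA467197 and -0.42 for Ndufa4.

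Promoter windows of the isoforms differed in their sequence. RefSeq windows on GRCm38.p6, with 250 bases before and 50 after the gene's start, were matched for 65 of the 81 genes, of which 62 reached 1 TPM. Among the unmatched genes are Atp5a1, Atp5mpl, Atp5o, Cox4i1, Cox4i2, Cox6a2, Cox6c, Cox8c, Ndufa2, Ndufa4l2, Ndufb9, Ndufs1, Uqcrb, Uqcrc2 and Uqcrq. The median number of CpG pairs was 19 in the 62 windows of expressed members and 21 in 7948 windows of expressed coding genes, and the 3 windows of members under 1 TPM, those of Cox6b2, Cox7b2 and Cox8b, had 10, 10 and 2. The windows of Cox8a at chr19:7217567-7217866 and Cox8b at chr7:140900397-140900696, both on the minus strand, are shown because they belong to the highest and to an undetected gene of 1 family; capitals mark the ETS motif CCGGAAG on either strand in Cox8a and the TATA motif TATAAA in Cox8b:

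Cox8a: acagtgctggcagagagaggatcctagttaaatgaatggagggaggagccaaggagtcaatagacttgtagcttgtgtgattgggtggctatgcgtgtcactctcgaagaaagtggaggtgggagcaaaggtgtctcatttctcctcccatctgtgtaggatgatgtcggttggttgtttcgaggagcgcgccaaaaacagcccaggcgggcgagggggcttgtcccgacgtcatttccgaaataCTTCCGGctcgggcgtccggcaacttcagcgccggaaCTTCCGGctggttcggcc
Cox8b: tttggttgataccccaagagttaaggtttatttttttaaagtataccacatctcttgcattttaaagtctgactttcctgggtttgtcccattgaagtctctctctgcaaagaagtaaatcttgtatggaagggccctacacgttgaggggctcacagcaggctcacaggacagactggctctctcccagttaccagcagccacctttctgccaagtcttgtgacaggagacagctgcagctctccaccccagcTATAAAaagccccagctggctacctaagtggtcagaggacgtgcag

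The Cox8a window held 19 CpG pairs and the ETS letters at 2 places, and the Cox8b window held 2 CpG pairs and no ETS match. The windows of Cox6b1 at chr7:30626065-30626364 and Cox6b2 at chr7:4753045-4753344, again on the minus strand, make the same kind of pair, with 1 ETS match in capitals in the first and none of the motifs in the second:

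Cox6b1: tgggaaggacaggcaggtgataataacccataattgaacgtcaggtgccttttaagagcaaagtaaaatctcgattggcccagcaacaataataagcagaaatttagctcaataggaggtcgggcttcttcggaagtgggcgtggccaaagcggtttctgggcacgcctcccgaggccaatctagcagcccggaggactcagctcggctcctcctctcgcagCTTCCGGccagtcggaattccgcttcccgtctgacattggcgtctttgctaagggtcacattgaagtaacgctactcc
Cox6b2: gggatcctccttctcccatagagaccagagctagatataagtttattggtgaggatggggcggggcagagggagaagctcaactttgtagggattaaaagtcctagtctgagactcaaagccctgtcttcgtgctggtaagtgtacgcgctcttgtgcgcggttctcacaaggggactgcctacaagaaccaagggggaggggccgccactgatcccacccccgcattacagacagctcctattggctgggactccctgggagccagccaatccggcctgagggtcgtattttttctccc

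The third matched pair went the other way, as the window of Cox7b, with a mean of 104 TPM, held 5 CpG pairs and none of the motifs, and that of Cox7b2, at 0 TPM, held 10 CpG pairs and the TATA letters. The windows of Cox7a2 and of the muscle form Cox7a1 held 20 and 7 CpG pairs, and neither held any of the motifs.

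In all, 5 motifs were searched on both strands, none of which contains another: CCGGAAG for ETS factors such as GABPA, GCATGCGC for NRF1, AAGATGGC for YY1, TCAAGGTCA for ESRRA and TATAAA. GABPA, NRF1, YY1 and ESRRA are transcription factors known from work on other cells to act at respiratory genes. The ETS letters stood in 20.97% of windows of expressed members, in 21.4% of those of expressed coding genes and in 9.12% of all 27025 windows. The NRF1 letters stood in 14.5%, 6.14% and 2.80% of the same 3 groups, and the YY1 letters in 14.5%, 5.55% and 2.88%. Of the 9 members with the YY1 letters, 7 belong to complex I, among them Ndufa3, Ndufb8 and Ndufs4, which makes 21.9% of the 32 complex I windows. The ESRRA letters were in 1 member, Atp5g3, and the TATA letters in 8.06% of expressed members, against 6.56% of expressed coding genes. The window of Ndufb8, at chr19:44555393-44555692 on the minus strand, is shown as a complex I promoter with the YY1 letters in capitals:

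Ndufb8: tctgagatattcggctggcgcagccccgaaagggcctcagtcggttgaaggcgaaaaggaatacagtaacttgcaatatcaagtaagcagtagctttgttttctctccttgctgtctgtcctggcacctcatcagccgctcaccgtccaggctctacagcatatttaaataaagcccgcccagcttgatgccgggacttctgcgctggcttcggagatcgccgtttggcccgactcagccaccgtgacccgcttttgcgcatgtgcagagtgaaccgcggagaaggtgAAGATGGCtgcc

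These are matches of letters in a window, and factor binding was not measured.

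Many of these genes share sequence with other annotated genes, among them near-identical copies elsewhere in the genome. For each gene the leading transcript was cut into 31-base words, and the words also present in transcripts of another gene were counted. Both strands counted as 1, so genes that overlap at the same place are included. The median share was 7.27% in the 74 expressed members, against 0.552% in expressed coding genes, and 12.2% of members, against 7.21% of coding genes, shared 50% or more. The contrast depended on length. Below 600 nt the median share was 13.5% in 28 members and 36.4% in 158 coding genes, so the members had the lower one. In the longer groups the members had the higher one, with 11.5% against 4.10% between 600 and 900 nt. The members are counted among these coding genes. In 25 members, the second Atp5o entry among them, a single other gene held 20% or more of the words. Of the 39 such genes 28 were pseudogenes. The others include genes that overlap the member on the opposite strand, such as Pdzd9 for Uqcrc2. The 20% limit is not set against that of all coding genes. The coding sequence of the member was aligned to each of the 28 pseudogenes, and between 91.4% and 100% of the compared bases matched.

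The whole coding sequence was found without a difference in 4 of them, and 3 of these 4 were the pseudogenes with the highest listed levels. They were Gm12338, a copy of Cox7c, with 377 and 265 TPM, Ndufb4c, described above, and Gm10175, a copy of Atp5g2, with 41.3 and 47.3 TPM. The fourth, Gm10231, a further copy of Atp5g2, had 0 counts in both libraries. The other 24 ranged up to a mean of 10.1 TPM, reached by Gm10221, which holds 309 of the 312 coding bases of Atp5l without a difference. Gm12338 rested on 160 and 94.3 expected counts over 192 bases, so that a small count makes a large TPM in this short gene. Ndufb4c rested on 1078 and 767 expected counts over 390 bases, more than the 446 and 415 of Ndufb4.

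The coding sequence of Cox7c spans chr13:86045753-86046675 on the minus strand, and Gm12338 lies on the minus strand at chr11:75599763-75599954. The sequence is shown in full because both genes hold it letter for letter, with the 6 bases around the exon junction of Cox7c in capitals:

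Cox7c and Gm12338: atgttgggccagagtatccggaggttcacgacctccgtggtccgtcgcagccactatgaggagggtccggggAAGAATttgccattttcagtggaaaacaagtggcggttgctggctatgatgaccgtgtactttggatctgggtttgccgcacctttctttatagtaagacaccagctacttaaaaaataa

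Atp5g2 lies on the minus strand at chr15:102662864-102672352 and Gm10175 on the minus strand at chr7:23946646-23947290. The first 300 of 441 coding bases, identical in Atp5g2, in Gm10175 and in Gm10231, span chr15:102665080-102667749 and are shown with the bases around 2 exon junctions of Atp5g2 in capitals:

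Atp5g2, Gm10175 and Gm10231: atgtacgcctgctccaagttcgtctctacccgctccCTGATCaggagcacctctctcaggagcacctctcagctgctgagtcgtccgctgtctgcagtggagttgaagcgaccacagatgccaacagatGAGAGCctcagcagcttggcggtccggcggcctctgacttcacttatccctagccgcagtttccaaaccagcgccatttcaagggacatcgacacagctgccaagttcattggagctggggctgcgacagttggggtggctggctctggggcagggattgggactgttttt

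The second quantification, a transcript table with estimated counts and TPM built on the reads without a prior alignment to the genome, was summed per gene. Over the 74 members at 1 TPM or more in either, the second value was 87.1% of the first at the median. It was 97.8% at the median over 10179 coding genes. The second value was the lower one in 70 of the 74 members and in 6384 of the 10179 coding genes. The gap was wider in short genes: below 600 nt the second value was 80.5% of the first in 28 members and 81.2% in 158 coding genes, and from 1500 nt upward it was 94.0% in 8 members and 98.5% in 7574 coding genes. The members are counted among these coding genes. By fold, 2 members were 2-fold or more apart between the quantifications, where 2.19% of the coding genes were. A 1.5-fold limit was passed by 3 members that were lower in the second and by 1 that was higher, against backgrounds of 0.992% and 2.65%.

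Atp5g2 was the member that moved most. It had 10.9 and 8.24 TPM in the second quantification, against 182 and 120.4 TPM in the first. Gm10175 went the other way, with 208 and 158 TPM in the second, against 41.3 and 47.3 TPM in the first. The sum of both genes was 219 and 166 TPM in the second and 224 and 168 TPM in the first, so the total changed by less than its replicate difference while its division between the genes turned round. The posterior SD of the Atp5g2 count, deposited with the first quantification, was 60.2 counts in replicate 1, the largest of the 81 genes.

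Cox7c and Ndufc1 were the other members 1.5-fold lower in the second quantification. Cox7c had 418 and 398 TPM in the second, against 589 and 648 TPM in the first, and its copy Gm12338 was listed at 0 TPM in the second. Ndufc1, a small membrane subunit with a leading transcript of 315 nt, had 108 and 92.5 TPM in the second, against 172 and 132 TPM in the first. Cox6a2 was the single member at least 1.5-fold higher in the second, with 8.21 and 11.6 TPM, against 4.59 and 4.74 TPM in the first. Ndufb4 hardly moved, with 17.6 and 17.1 TPM in the second, and Ndufb4c had 144 and 114 TPM in it, so the low level of the parent gene and the high level of its copy held in both quantifications.

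**Figure D3:**
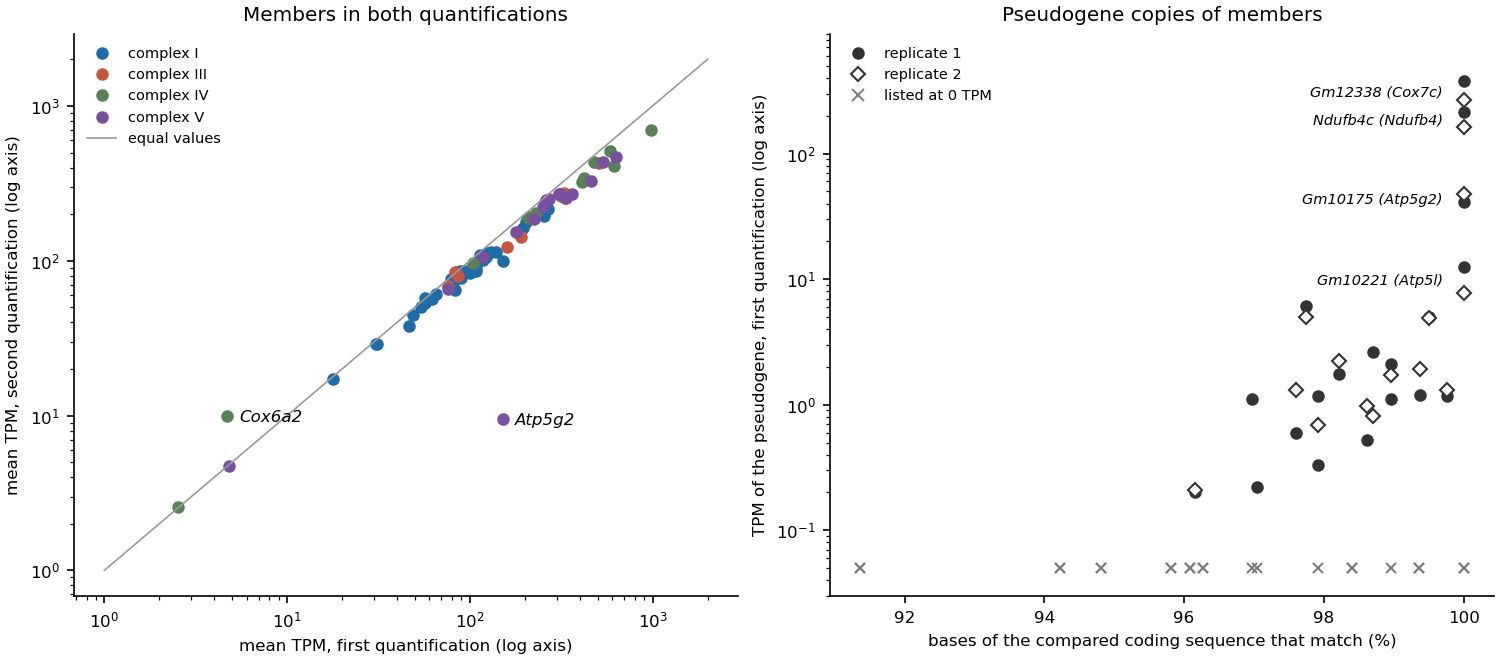
Left, mean TPM of each member in the second (vertical) and the first (horizontal) quantification on log axes, coloured by complex, with the line of equal values; right, TPM of 28 pseudogene copies in replicate 1 (filled circles) and replicate 2 (open diamonds) on a log axis against the percentage of compared coding bases that match the parent gene, with crosses for 0 TPM. Atp5g2 lies far below the line and Cox6a2 above it, and the copies above 10 TPM in the first quantification all match at 100%.

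The 2 libraries lay close together for most members, with a tilt towards replicate 1. On counts scaled with TMM over all 12543 genes that passed the filter on low counts, the 74 members had a median of -0.18 for the log2 of replicate 2 over replicate 1, against 0.00 over all genes, and 51 of the 74 were lower in replicate 2. The medians were -0.22 for complex V, -0.21 for complex IV, -0.15 for complex I and 0.02 for complex III. Single genes ran between -0.64 and 0.28. No member was 2-fold or more apart, where 4.21% of all genes were. At 1.5-fold, 2 members were lower in replicate 2, where 6.94% of all genes were, and 0 were higher, where 6.23% of all genes were.

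Those 2 genes were Cox8a and Atp5g2. Cox8a had 329 TPM in replicate 2 and 517 TPM in replicate 1, from 3181 and 5370 counts, a scaled log2 ratio of -0.64. Atp5g2 had 120.4 TPM in replicate 2 and 182 TPM in replicate 1, a log2 ratio of -0.60, while the sum with Gm10175 was 168 and 224 TPM. At the other end Ndufa9, an accessory subunit of complex I, had the highest ratio, 0.28.

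The tilt ran with transcript length, in the members and in coding genes alike. Below 600 nt the median log2 ratio was -0.22 over 28 members, 23 of which were lower in replicate 2, and -0.19 over 158 coding genes. Between 600 and 900 nt it was -0.21 over 24 members and -0.15 over 499 coding genes, between 900 and 1500 nt it was -0.04 in both, and from 1500 nt upward it was 0.05 over 8 members and 0.02 over 7574 coding genes. In each length group the members' median and that of coding genes had the same sign, with the members counted among the coding genes. Across the 74 members, length and ratio had a Spearman correlation of 0.37, given as a description across genes that share both libraries.

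**Figure D4:**
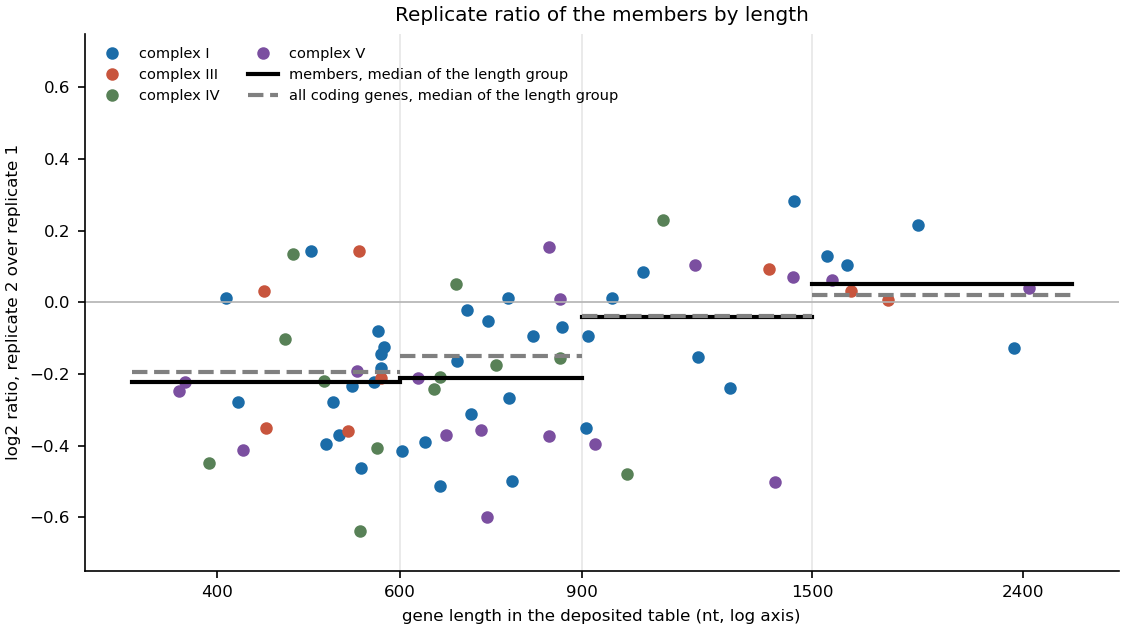
Log2 ratio of replicate 2 over replicate 1 for each of the 74 expressed members against gene length in nt (log axis), coloured by complex; black lines are the members' medians and dashed grey lines those of all coding genes at 1 TPM or more in 4 length groups. Both sets of medians lie near -0.2 for the shortest genes and near 0 from 900 nt upward.

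Most members were represented by 1 coding transcript. In 65 of 74 members 1 transcript took at least 60% of the gene's TPM in both libraries, and in 48 it took at least 90%. This leading transcript was annotated as protein coding in 69, and the same transcript led in both quantifications in 72. Each of these counts includes 8 members with a single annotated transcript, for which the outcome was fixed by the annotation. The counts are not set against those of all coding genes. At the median 99.2% of a member's TPM was assigned to coding transcripts.

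The exceptions included some of the highest genes. In Cox6b1, by the first quantification, a 369 nt transcript with a retained intron took 56.6% and 58.7% of the level, so coding transcripts had 401 and 425 TPM, and by coding transcripts alone Cox5a led the set with 629 and 532 TPM and Cox6b1 came 8th. In the second quantification the retained-intron transcript of Cox6b1 held 40.6% and 49.2%, and the coding transcript Cox6b1-201 led with 59.0% and 50.4%. In Atp5b, coding transcripts held 77.5% and 74.3%. In Ndufs4, a complex I subunit needed for a stable enzyme, transcripts marked for nonsense-mediated decay, the pathway that removes mRNAs with an early stop codon, took 56.7% and 64.002%, which left 29.9 and 26.4 TPM for coding ones. In Ndufa5, a small subunit of the matrix arm, a non-coding processed transcript took 69.0% and 75.2%.

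In 2 genes of the ATP synthase peripheral stalk the leading type changed between libraries. Coding transcripts of Atp5f1, subunit b, held 59.9% in replicate 1 and 37.3% in replicate 2, with most of the rest on a transcript marked for nonsense-mediated decay. Those of Atp5j, coupling factor 6, held 61.3% in replicate 1 and 37.2% in replicate 2, with most of the rest on a transcript with a retained intron. The gene totals moved far less, with 244 and 276 TPM for Atp5f1 and 234 and 213 TPM for Atp5j. Exons of Atp5j overlap those of Gabpa, the gene of the ETS factor named above, on the opposite strand, and Gabpa had 15.0 and 13.9 TPM.

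The remaining members without a clear leading transcript spread their level over several forms, and in Ndufs1 transcripts with a retained intron held 19.6% and 14.6%. The leading transcript of Ndufb5 held 33.0% and 57.8%, that of Ndufs1 55.7% and 59.6%, that of Atp5s 41.1% and 74.8%, and that of Uqcrq 60.6% and 56.2%. In Cox7c a processed transcript of 315 nt held 24.4% and 42.9% in the first quantification, against 4.25% and 8.09% in the second.

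**Figure D5:**
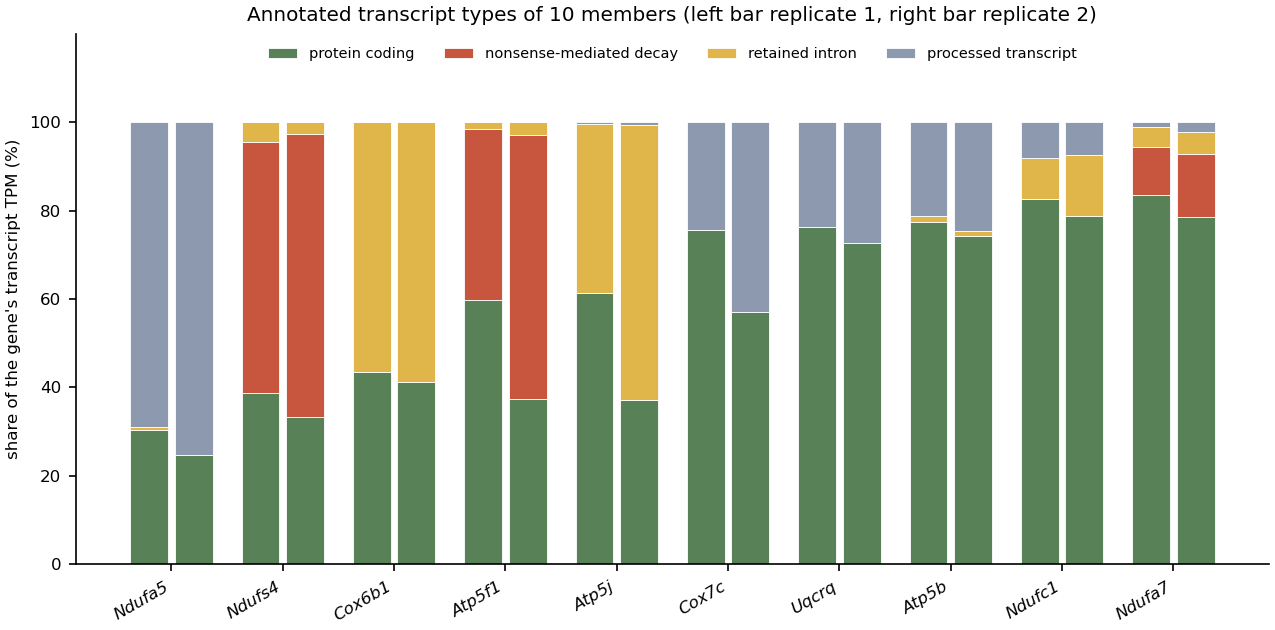
Share of each gene's transcript TPM, in %, by annotated transcript type for the 10 members with the lowest coding share; for each gene the left bar is replicate 1 and the right bar replicate 2. Ndufa5, Ndufs4 and Cox6b1 have less than 50% in coding transcripts in both libraries, and Atp5f1 and Atp5j in replicate 2 alone.

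Genes that work with these complexes stood at lower levels, with the exception of complex II and the mitochondrial genome. All 4 genes of complex II, succinate dehydrogenase, were at 10 TPM or more with a median of 126 TPM, from Sdhb, its iron-sulfur subunit, with 203 and 212 TPM, to Sdhc, a membrane anchor, with 82.4 and 92.9 TPM. The assembly factors, proteins that help build a complex without staying in it, had median levels of 10.3 TPM over 15 genes for complex I, 18.3 TPM over 6 genes for complex III, 28.1 TPM over 23 genes for complex IV and 15.7 TPM over 3 genes for the ATP synthase. Cox17, the copper chaperone of complex IV, was the highest assembly factor with 348 and 416 TPM, which is within the range of the subunits themselves, and Pet117 had 0 counts.

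Within the other assembly lists, the highest and lowest were Foxred1, with 27.6 and 30.9 TPM, and Nubpl, with 2.30 TPM in both, for complex I. For complex III they were Uqcc2, with 119 and 76.3 TPM, and Lyrm7, with 2.33 and 0.71 TPM. For the ATP synthase they were Tmem70, with 24.5 and 28.0 TPM, and Atpaf1, with 10.9 and 8.88 TPM. Of subunits and carriers outside the symbol rule, Atpif1, the inhibitor of the ATP synthase in reverse, was the highest with 291 and 286 TPM, and Cyct, testis cytochrome c, had 0 counts in both libraries. Among 12 transcriptional regulators the median was 12.6 TPM. Tfam, which packages mitochondrial DNA, was the highest with 26.5 and 28.3 TPM, and Ppargc1a, the coactivator known to drive mitochondrial biogenesis in muscle and brown fat, had 1 count in each library.

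The 13 protein-coding genes of the mitochondrial genome had a median of 1324 TPM and summed to 38690 TPM in replicate 1 and 56353 TPM in replicate 2, against 15716 and 14320 TPM for all 81 nuclear genes. Their single values are less certain, as several moved far between the quantifications and some between the libraries. In the first quantification mt-Nd3 had 76.0 and 1382 TPM and mt-Co3 had 64.8 and 304 TPM, whereas mt-Nd4 had 1324 and 1323 TPM. The mitochondrial genes overlap or abut on long shared precursors, and whether that bears on the values was not tested. mt-Atp8, a short gene that overlaps mt-Atp6, had 20113 and 35883 TPM and made up most of the sum, and mt-Co2 had the lowest mean, with 76.6 and 65.1 TPM. In the second quantification mt-Atp8 had 5721 and 10070 TPM. The overlapping gene mt-Atp6, a membrane subunit of the ATP synthase, had 3659 and 3395 TPM in the second quantification and 73.0 and 316 TPM in the first.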

How the data were processed

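PolyA-selected RNA of 2 libraries of 1 group was quantified per library on the mm10 build with GENCODE M21 (per the file headers and the text record deposited with each library). The first quantification, from transcriptome alignments, gave expected counts, TPM and posterior scores (the SD of each count and credibility bounds of TPM), as the authors deposited them. The second, made directly from the reads, gave estimated counts and TPM per transcript, also as deposited, which were summed here per gene. How strand was handled, and with which aligner and quantifiers, is not given in the sources used here. Deposited too, and not used, were the authors' FPKM values (per kilobase and library size, per the file headers).

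Levels are deposited TPM; no level was transformed except as log2(TPM + 1) for spreads and isoform ratios. Expected counts were rounded, filtered with filterByExpr and scaled with TMM in edgeR 4.0.16 (R 4.3.3) for the log2 ratio of replicate 2 over replicate 1, with a prior count of 0.5. With 1 group no test was run, and no p-value is given. Errors are SDs over 2 libraries that share a donor identifier, which can understate variation from mouse to mouse, and intervals or limits of 3 counts cover counting error only. Of the 81 genes, 23 had an expected count that was not whole within 0.005, and 30 overlap exons of another gene, 26 of them on the opposite strand. Coding sequences (GENCODE M21, GRCm38) were aligned to pseudogenes with edlib 1.3.9.post1, exon overlaps were found with bedtools 2.31.1, and Python 3.11.15 served for the tables (pandas 2.3.3, NumPy 2.4.6), correlations (SciPy 1.17.1) and plots (matplotlib 3.10.9).

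The values of 1 member are not reported here on their own, but count in the totals and medians. The symbol rule uses no measured value, but it and the gene lists were chosen with earlier results of these data known. Named are the 3 highest and 3 lowest genes of each complex, the core subunits, the isoform families, members 1.5-fold apart between libraries or 2-fold apart between quantifications, members whose leading transcript is under 60% or not coding, and the highest and lowest gene of each related list. Genes outside that rule, such as Ndufb4c, Ndufb1-ps, Cyc1 and AA467197, were named after their values were seen. Alternatives were the second quantification, posterior mean TPM, coding transcripts only, other thresholds, filters, pseudocounts and prior counts, DESeq2 1.42.0 size factors, and leaving out a replicate.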

Additional observations from a re-analysis of the deposited data

How the results depend on the processing

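Of 92 recomputed values, 63 kept their direction and lay within the replicate spread or, for counts, within 1.5 times. The median log2 ratio between libraries stayed between -0.19 and -0.16 under every alternative. The second quantification lowered the median TPM to 101.5 over all members, 85.3 in complex I, 133 in III, 191 in IV and 243 in V, left 1 member 1.5-fold apart between libraries, and gave an interquartile range of 0.76 in complex I and 1.60 in III. It turned round the log2 ratio of Atp5g2 to Atp5g1, to -2.67 from 0.97, and gave 4.68 for Atp5g3 to Atp5g2, 4.60 for Cox6a1 to Cox6a2 and 5.84 for Cox7a2 to Cox7a1. The shift of reads between Atp5g2 and Gm10175 stands beside the first 2; other causes were not tested. Counting only members at 1 TPM or more gave medians of 134.5 TPM over all members, 96.4 in complex I and 314 in IV, while all members widened the interquartile range to 1.00 in complex I and 8.24 in IV. Complex IV had 205.7 TPM by posterior mean and 209 TPM by coding transcripts. With Ndufab1, Ndufb1-ps and Ndufb4c, an alternative added after seeing the data, complex I had 96.4 TPM. At 100 TPM, 45 members passed. Without the filter on low counts, 1 member, with 0 and 1 count, was 2-fold apart between libraries, and above 10 TPM, 1 was 2-fold apart between quantifications. A pseudocount of 0.1 gave 6.47 for Cox7a2 to Cox7a1 and 2.02 for Atp5g3 to Atp5g1. Leaving out a replicate gave medians of 116.3 to 127 TPM over all members, 91.0 to 95.4 in complex I, 158 to 194 in III, 206 to 208 in IV and 247 to 269 in V, and 1 to 2 members 2-fold apart between quantifications. No paired analysis was possible because the series holds 1 group. Genes with under 3 counts are given as counts and limits, and the cause of the wider gap between quantifications below 600 nt was not tested.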
